A study of Mus musculus with 8 samples.

Results

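The neurexins and neuroligins described here are 5 genes, Nrxn2, Nrxn3, Nlgn1, Nlgn2 and Nlgn3, taken by symbol from the 31053 genes of a snRNA-seq study of mouse cortex. They were chosen by name and not by any measured value, and all 5 were detected in all 8 libraries. The nuclei came from the cortex of naive 6-week-old mice of the C57BL6J strain, 4 of them Wt (Ifnar1+/+) and 4 Ifnar1-/-, which lack a subunit of the type I interferon receptor in every cell of the body. Each genotype comprised 2 females (F1, F2) and 2 males (M1, M2), and each library was made from 1 mouse. The Ifnar1-/- line had been backcrossed onto C57BL/6J, and the Wt mice carried the same background. No mouse received a treatment, and the groups differed by label only in genotype and sex.

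Neurexins are adhesion proteins of the presynaptic membrane, and neuroligins are their best known partners on the postsynaptic membrane. Across the synaptic cleft the pair helps to organise transmitter release on one side and receptor clustering on the other. Nlgn1 is known mainly from excitatory synapses, Nlgn2 from inhibitory synapses and Nlgn3 from both kinds, while neurexins are made in excitatory and inhibitory neurons alike. The genes are also transcribed in glia, among them the precursors of oligodendrocytes. Neurexin genes give rise to long and short forms and to many splice forms, which counts per gene cannot separate.

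After filters on nuclei and the removal of doublets 52079 nuclei remained of 56780 barcodes, and the median depth of a library was 4869 to 9911 UMIs (unique molecular identifiers, each standing for 1 captured RNA molecule) per nucleus. Pairs of libraries shared at most 30 barcodes. Clusters were named by marker genes, without using the 5 genes or their partners, and gave 19 cell types. These comprised 8 types of glutamatergic neuron (17038 of the 26464 nuclei in the class, with 9426 in no type), 5 types of GABAergic neuron (6248 of 7678 nuclei, with 1430 in no type), striatal projection neurons (2263 nuclei, present although the tissue is labelled as cortex), and 5 glial types. Astrocytes were rare at 163 nuclei, and 6 clusters with 3373 nuclei stayed unnamed. One of the 5 GABAergic types is called by its number, GABAergic cluster 32 (544 nuclei), because its score was highest for the Sncg list while its leading genes, among them Adarb2, Vip, Tac2 and Cnr1, held 2 Vip markers and 1 Sncg marker. In L2/3 IT and L5 ET neurons 1 cluster each (718 and 218 nuclei) likewise held 1 leading marker of another type and 0 of its own, and without them the levels of the 5 genes were 0.986 to 1.03 times those given below. Ifnar1 itself, the targeted gene, stood, in counts per 1000000 UMIs (CPM), at 19.9, 16.2, 17.5 and 18.7 CPM over all nuclei in Wt and at 13.9, 14.5, 16.8 and 15.9 CPM in Ifnar1-/-. Its log2 fold change was -0.24 (SE 0.11, edgeR adjusted p = 1.00), and since a UMI is assigned to the whole gene whatever stretch of its RNA it came from, this checks the genotype labels only weakly. In microglia, which had the highest Ifnar1, it stood at 62.1, 42.4, 54.3 and 56.7 CPM in Wt and at 22.9, 28.6, 30.8 and 36.2 CPM in Ifnar1-/- (199 and 98 UMIs), without overlap, with a log2 fold change of -0.81 (SE 0.22, edgeR adjusted p = 1.00).

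The 5 loci differ greatly in size, which bears on nuclear RNA because UMIs from introns were counted. In the GENCODE M21 annotation of GRCm38, Nrxn2 (ENSMUSG00000033768) lies on the forward strand at chr19:6418731-6544169, and Nrxn3 (ENSMUSG00000066392) on the forward strand at chr12:88722876-90334935. Nlgn1 (ENSMUSG00000063887) lies on the reverse strand at chr3:25426215-26332460, Nlgn2 (ENSMUSG00000051790) on the reverse strand at chr11:69823122-69837784, and Nlgn3 (ENSMUSG00000031302) on the forward strand at chrX:101299168-101325963. Exons cover 0.782% of the Nrxn3 locus and 1.48% of the Nlgn1 locus, against 11% for Nrxn2, 34.6% for Nlgn3 and 39.5% for Nlgn2. Levels are therefore compared between cell types within a gene and not between genes. No gene of the count tables overlaps any of the 5 on the same strand, while Nrxn2 overlaps Gm14964 and Slc22a12, and Nlgn1 overlaps A830092H15Rik, on the opposite strand.

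Nrxn2, a presynaptic neurexin, was highest in oligodendrocyte precursors and, among neurons, in Vip interneurons and GABAergic cluster 32. All levels by type are CPM of the UMIs summed within a type, as means over libraries, ± SD, with n = 8 unless stated. In the 5 GABAergic types Nrxn2 was 526 ± 59.3 CPM in Vip interneurons, 358 ± 57.3 in cluster 32, 276 ± 31.6 in Sst, 264 ± 37.9 in Lamp5 and 191 ± 17.8 in PValb interneurons. In the 8 glutamatergic types it was 290.0 ± 28.7 in L5 ET, 266 ± 36.1 in L2/3 IT, 253 ± 24.2 in L5 IT, 232 ± 21.4 in L5/6 NP, 203 ± 20.5 in L6b, 191 ± 21.9 in Car3 and claustrum, 182 ± 15.9 in L6 CT and 149.95 ± 17.2 CPM in L4 IT neurons. The spread across types was thus wider in interneurons, where the highest type stood 2.76-fold above the lowest, than in glutamatergic neurons at 1.93-fold. Striatal projection neurons had 209 ± 32.7 CPM. Among glia Nrxn2 was 679 ± 73.3 CPM in oligodendrocyte precursors, 307 ± 26.4 in astrocytes (n = 6), 165 ± 118 in newly formed oligodendrocytes (n = 7), 150.2 ± 18.2 in oligodendrocytes and 53.1 ± 18.4 in microglia.

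Nrxn3, the second neurexin, had the widest range of the 5 genes, from 13495 CPM in GABAergic cluster 32 to 177 CPM in oligodendrocytes, a ratio of 76.4. Both ends depended on the processing, since with doublets kept microglia were lowest (345 CPM, with 551 in oligodendrocytes) and the ratio was 37.2, and by the share of nuclei with a UMI after thinning to equal depth Vip interneurons were highest. Within the GABAergic types it was 13495 ± 1712 CPM in cluster 32, 9907 ± 995 in Vip, 9687 ± 994 in Sst, 5198 ± 445 in PValb and 2561 ± 303 in Lamp5 interneurons. Lamp5 interneurons therefore stood below most glutamatergic types for this gene. In glutamatergic neurons Nrxn3 was 6517 ± 688 in L6 CT, 5171 ± 358 in L5 ET, 4582 ± 410.1 in L2/3 IT, 4400.3 ± 379 in L6b, 4107 ± 360 in L4 IT, 2602 ± 335 in L5 IT, 2095 ± 314 in Car3 and claustrum and 1541 ± 85.0 CPM in L5/6 NP neurons. The L6 CT mean was 4.23-fold that of L5/6 NP neurons. Striatal projection neurons had 6642 ± 573 CPM, above every glutamatergic type by mean. In glia Nrxn3 was 2578 ± 377 in oligodendrocyte precursors, 953 ± 603 in astrocytes (n = 6), 273 ± 111 in microglia, 253 ± 116 in newly formed oligodendrocytes (n = 7) and 177 ± 52.5 CPM in oligodendrocytes.

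Nlgn1, the neuroligin of excitatory synapses, was highest in oligodendrocyte precursors and in the L5 ET, L5 IT, L2/3 IT and L4 IT neurons, and low in Sst and PValb interneurons. In glutamatergic neurons it was 4715 ± 238 CPM in L5 ET, 4378 ± 373 in L5 IT, 4092 ± 266 in L2/3 IT, 3651 ± 227 in L4 IT, 2473 ± 159 in L6 CT, 2359 ± 165 in L5/6 NP, 1741 ± 154 in L6b and 1665 ± 205 in Car3 and claustrum neurons. The L5 ET mean was 2.83-fold that of Car3 and claustrum neurons, so the class was far from uniform. Interneurons had 2072 ± 188 CPM in Lamp5, 1790.2 ± 129 in Vip, 1304 ± 169.8 in cluster 32, 1195 ± 107 in PValb and 1097 ± 121 in Sst, and striatal projection neurons 3418 ± 370.03. Glia had 4776 ± 597 CPM in oligodendrocyte precursors, 2434 ± 243 in astrocytes (n = 6), 2173 ± 693 in newly formed oligodendrocytes (n = 7), 697 ± 32.6 in oligodendrocytes and 196 ± 76.2 in microglia. The places of the 2 highest types were not stable, since L5 ET neurons came first when doublets were kept, when sums were scaled by TMM over all types, when nuclei were thinned to equal depth, and without library Wt F1 or Ifnar1-/- F2.

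Nlgn2, the neuroligin of inhibitory synapses, and Nlgn3 were far more even across neurons than the other 3 genes. The highest neuron type exceeded the lowest 1.64-fold for Nlgn2 and 1.78-fold for Nlgn3, against 3.51-fold for Nrxn2, 4.30-fold for Nlgn1 and 8.76-fold for Nrxn3. Nlgn2 was 69.3 ± 13 CPM in Vip, 65.5 ± 15.9 in Lamp5, 59.0 ± 4.79 in cluster 32, 54.5 ± 8.17 in Sst and 50.1 ± 7.06 in PValb interneurons. In glutamatergic neurons it was 53.5 ± 8.13 in L4 IT, 51.1 ± 11.8 in L5/6 NP, 48.2 ± 8.42 in Car3 and claustrum, 47.9 ± 4.95 in L2/3 IT, 46.4 ± 4.29 in L5 ET, 46.1 ± 4.92 in L5 IT, 42.5 ± 3.27 in L6b and 42.2 ± 4.24 CPM in L6 CT neurons. Striatal projection neurons had 50.5 ± 8.39 CPM, within the range of the other neurons. The means of glia lay outside that range on both sides, with 122 ± 26.4 CPM in oligodendrocyte precursors, 90.4 ± 38.2 in newly formed oligodendrocytes (n = 7), 39.2 ± 22.6 in astrocytes (n = 6, from 19 UMIs), 22.2 ± 5.30 in microglia and 16.8 ± 3.93 in oligodendrocytes. The libraries of astrocytes (0 to 63.1 CPM) and of newly formed oligodendrocytes (24.3 to 132 CPM) reached into the range of the neurons, so these types cannot be placed outside it.

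Nlgn3, which is X-linked, was 68.1 ± 6.25 CPM in striatal projection neurons, its highest neuron type. Interneurons had 64.3 ± 10.8 CPM in Vip, 64.2 ± 13.1 in cluster 32, 56.8 ± 8.74 in Sst, 55.6 ± 9.01 in Lamp5 and 46.7 ± 6.55 in PValb. Glutamatergic neurons had 50.8 ± 11.2 in Car3 and claustrum, 49.3 ± 8.32 in L6b, 49.2 ± 5.19 in L5/6 NP, 47.4 ± 5.57 in L6 CT, 46.2 ± 3.87 in L2/3 IT, 46.1 ± 4.93 in L5 ET, 40.02 ± 6.56 in L5 IT and 38.2 ± 6.01 CPM in L4 IT neurons. The SD of most neuron types overlapped that of their neighbours. In glia Nlgn3 was 194 ± 31.8 CPM in oligodendrocyte precursors, 141 ± 47.1 in newly formed oligodendrocytes (n = 7), 61.6 ± 23.5 in astrocytes (n = 6), 30.4 ± 2.33 in oligodendrocytes and 14.2 ± 5.57 in microglia.

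**Figure D1:**
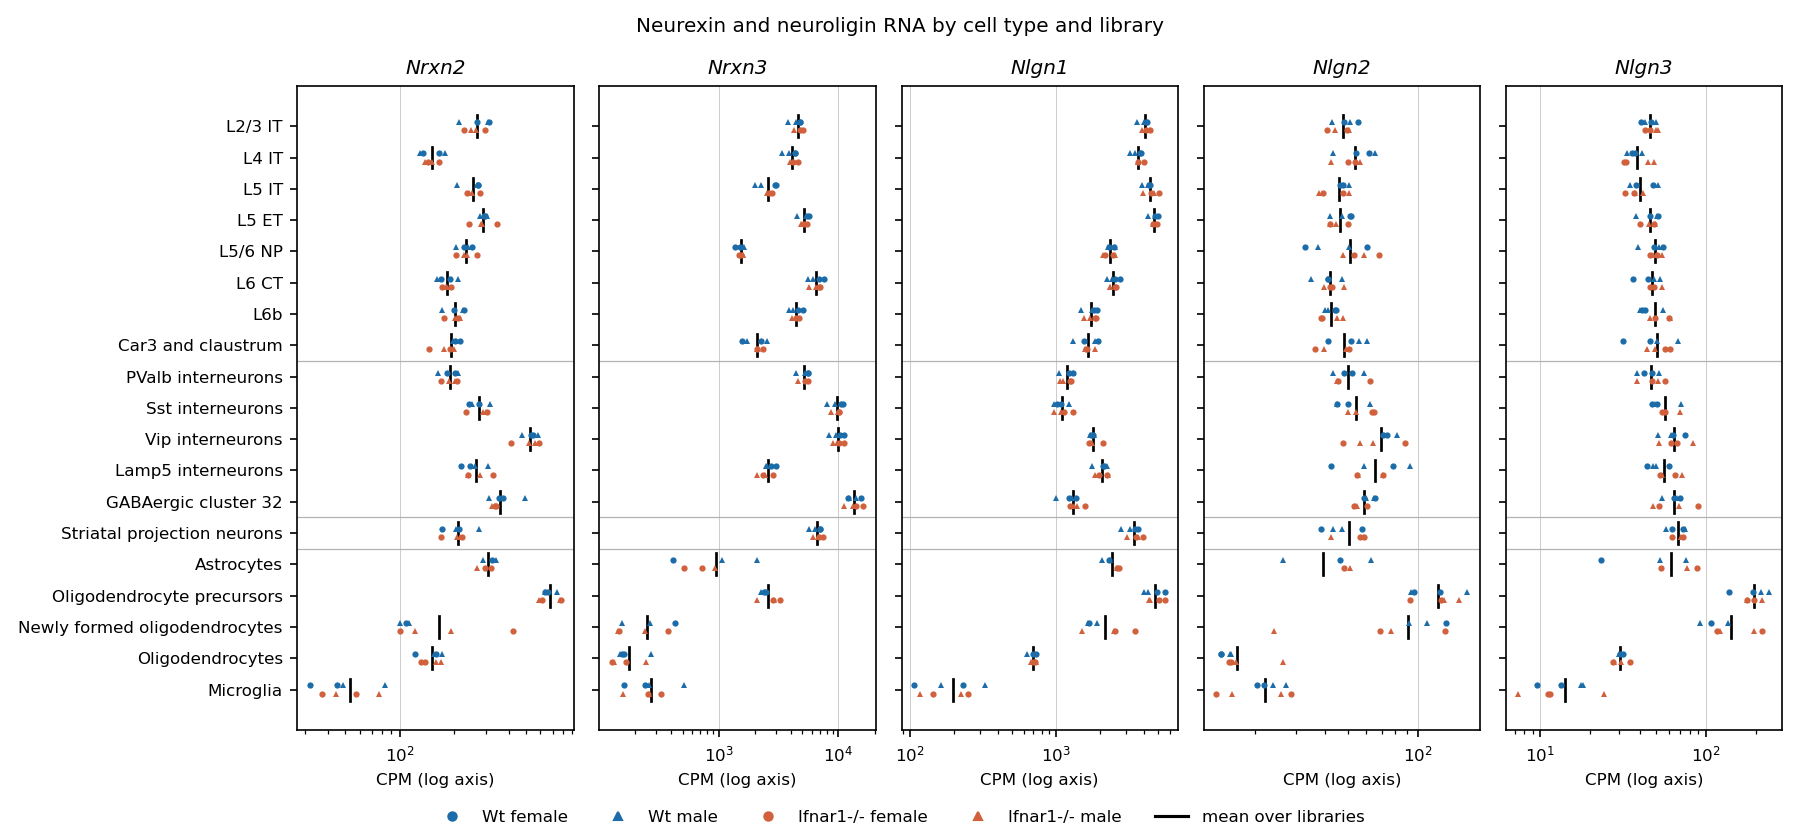
Each panel plots 1 gene, with cell types as rows and the CPM of summed UMIs on a log axis. Each point is 1 library, coloured by genotype and shaped by sex, and black bars are means over libraries. The points of Nrxn3 and Nlgn1 spread widely across types while those of Nlgn2 and Nlgn3 stack up in neurons, and the mean of oligodendrocyte precursors lies to the right of those of other glia in every panel. Nlgn2 in the astrocytes of Ifnar1-/- F2 was 0 and has no point on the log axis.

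Types that stood next to each other in these orders were compared within libraries by an exact two-sided sign-flip permutation test over the libraries that held both, with 18 pairs for each gene and 90 in all, of which 70 had 8 libraries and 20 had 6 or 7 because they involved astrocytes or newly formed oligodendrocytes. Differences past the threshold were seen in 17 pairs, each with 8 of 8 libraries in 1 direction, the smallest p that 8 libraries allow (exact permutation p = 0.00781, Benjamini-Hochberg adjusted p = 0.0414). For Nrxn2 they were oligodendrocyte precursors above Vip, Vip above cluster 32, L5 IT above L5/6 NP and L4 IT above microglia. For Nrxn3 they were cluster 32 above Vip, Sst above striatal projection neurons, L6 CT above PValb, L4 IT above L5 IT, and Car3 and claustrum above L5/6 NP. For Nlgn1 they were L5 IT above L2/3 IT, L2/3 IT above L4 IT, striatal projection neurons above L6 CT, Lamp5 above Vip, Car3 and claustrum above cluster 32, Sst above oligodendrocytes, and oligodendrocytes above microglia. For Nlgn2 no neighbouring pair passed, and for Nlgn3 only oligodendrocytes above microglia did. The other 73 pairs did not pass. Of these, 53 had 8 libraries, and the 20 with 6 or 7 could not pass whatever their difference, since their smallest possible p (0.0312 with 6, 0.0156 with 7) was too large for 90 pairs. In 2 of the 20 all libraries went 1 way, Nrxn3 in astrocytes above microglia (by 1.58 on the log2 scale, SD 0.71, n = 6) and Nlgn3 in newly formed oligodendrocytes above striatal projection neurons (by 1.00, SD 0.36, n = 7). The design was near its limit here, since at least 15 pairs had to reach the smallest p for any to pass, and on the scale of nuclei thinned to 1000 UMIs 13 pairs did and 0 passed.

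Free RNA in the droplets can add to levels in glia, but it was not measured directly, nor told apart from doublets left in. Whether glia themselves transcribe genes of the list used below was not tested. A list of 8 genes, called neuron-wide here, held Snap25, Syt1, Rbfox3, Slc17a7, Camk2a, Meg3, Rbfox1 and Celf2. Slc17a7 and Camk2a also served as markers of glutamatergic neurons. The list stood in microglia at 6.59% to 44.8% of its members' levels over all nuclei. Slc17a7 was its highest gene in microglia (44.8%), oligodendrocytes (27.8%) and astrocytes (33.5%). Nrxn3 stood there at 6.14% and Nlgn1 at 6.04%, below all 8 of the list by mean, although over the libraries Nrxn3 ranged from 3.23% to 11.6% and Nlgn1 from 3.18% to 10.2%, overlapping the lowest gene of the list, Rbfox1, at 4.83% to 8.15%. These microglial values are not read as expression. After thinning to 1000 UMIs, the expected share of nuclei with a UMI of Nrxn3 was 20.5% in microglia and 99.9% in Vip interneurons. Unthinned, the shares were 28.0% and 100%, at median depths of 1472 and 4912 UMIs. In oligodendrocytes Nrxn3 stood at 3.99% of its level over all nuclei, where the list ranged from 2.78% to 27.8%. In astrocytes it stood at 21.9%, within the list's 11.3% to 33.5%, and in newly formed oligodendrocytes at 5.56%, near the lowest of the list (5.41% to 13.7%). Nlgn1 in oligodendrocytes (21.5%), and Nrxn2 (22.6%) and Nlgn3 (29.5%) in microglia, also lay within the list's range for their type. For Nlgn1 in oligodendrocytes only Slc17a7 was higher by mean. Over the libraries Nlgn1 ranged there from 20.5% to 22.5%, overlapping Snap25, the next gene of the list, at 9.96% to 34.0%. Nlgn2 lay by mean above all 8 genes of the list in microglia (46.2%) and in oligodendrocytes (34.7%). Over the libraries it ranged in microglia from 25.7% to 63.8%, overlapping Slc17a7 at 24.6% to 64.4%. In oligodendrocytes it ranged from 27.2% to 52.4%, overlapping Slc17a7 at 15.4% to 47.0%. None of these levels is told apart from free RNA. The pairs that passed above microglia for Nrxn2, Nlgn1 and Nlgn3, and above oligodendrocytes for Nlgn1, rest on such levels. For Nlgn1 in oligodendrocytes above microglia this holds for both types. In oligodendrocyte precursors, by contrast, the 5 genes stood at 57.5% (Nrxn3) to 405% (Nlgn3) of their levels over all nuclei. By mean each lay above all 8 genes of the list, which ranged from 11.3% to 46.6%. Over the libraries Nrxn3 ranged from 48.1% to 66.8%, overlapping the highest gene of the list, Rbfox1, at 37.6% to 56.5%.

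In the oligodendrocyte lineage all 5 genes were higher in precursors than in oligodendrocytes, a comparison chosen after these levels were seen. The precursors were 1 cluster of 451 nuclei, led by Pdgfra and Cspg4, with 15 to 141 nuclei a library. For Nrxn3, precursors had 2081, 2462 and 3252 CPM (lowest, median, highest library) and oligodendrocytes 129, 159 and 271, a ratio of 14.9. Ratios in this paragraph come from the mean within-library difference in log2(CPM + 1), not from the mean CPM. The oligodendrocyte level lay within the range of the free RNA list, as given above, and with doublets kept it was 551 CPM against 2691 in precursors, a ratio of 4.95. For Nlgn1 the same values were 4005, 4684 and 5594 CPM against 628, 705 and 728, a ratio of 6.80. Its oligodendrocyte level, too, lay within the range of that list, by mean below Slc17a7 alone. The ranges lay far apart for both genes. The ratio was 6.88 for Nlgn2 (122 against 16.8 CPM by mean), 6.16 for Nlgn3 (194 against 30.4) and 4.50 for Nrxn2 (679 against 150.2). The oligodendrocyte level of Nlgn2 overlapped that of Slc17a7 over the libraries, relative to all nuclei, as given above. Each gene was higher in precursors in 8 of 8 libraries, with p = 0.00781 in the exact two-sided sign-flip permutation test, the smallest that 8 libraries allow, and the same value after adjustment over the 5 genes. Of the 7551 genes with a mean of at least 20 CPM over the 2 types, 21.3% were higher in precursors in 8 of 8 libraries, and the median log2 difference of these genes was -0.07. Newly formed oligodendrocytes, measured in 7 libraries, lay between the other two stages in 7 libraries for Nlgn1, 5 for Nlgn3, 4 for Nrxn3, 4 for Nlgn2 and 2 for Nrxn2. With doublets kept, precursors were higher in 8 of 8 libraries for each of the 5 genes.

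Across the 19 types the patterns of the 5 genes resembled each other only in part. The Pearson correlation of mean log2(CPM + 1) was highest for Nlgn2 with Nlgn3 (r = 0.79) and lowest for Nrxn3 with Nlgn3 (r = 0.21). These values describe 19 types that share libraries and depth, and carry no test. Among the 11651 genes with at least 20 CPM in some type, those most like Nrxn2 were Gm28750 (r = 0.84), Enah (r = 0.84), a regulator of actin filaments, and Airn (r = 0.81). Those most like Nrxn3 were Iglon5 (r = 0.92), a neural adhesion molecule, Ccser1 (r = 0.90) and Usp29 (r = 0.90). Those most like Nlgn1 were Acp1 (r = 0.95), Efhb (r = 0.91) and 4930545L23Rik (r = 0.83). Those most like Nlgn2 were Phf6 (r = 0.93), Myt1 (r = 0.93), a transcription factor of the oligodendrocyte lineage, and Plppr5 (r = 0.89), and those most like Nlgn3 were Cacng4 (r = 0.88), an auxiliary subunit of AMPA receptors, Rimklb (r = 0.86) and Lsamp (r = 0.85).

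Between the 2 main neuron classes, Nrxn3 was higher in GABAergic neurons and Nlgn1 in glutamatergic neurons, and the other 3 genes differed little. Nrxn3 had 3520, 4151 and 4568 CPM (lowest, median, highest library) in glutamatergic and 6466, 7657 and 8896 CPM in GABAergic neurons, with no overlap. With the library as a term in the model, its log2 fold change was 0.74 (SE 0.03), a 1.67-fold higher level in GABAergic neurons (edgeR's quasi-likelihood test, Benjamini-Hochberg adjusted p = 7.48e-16). Nlgn1 had 3548, 3893 and 4117 CPM in glutamatergic and 1224, 1442 and 1587 CPM in GABAergic neurons, and again no library overlapped. Its log2 fold change was -1.60 (SE 0.03), a level 3.02-fold higher in glutamatergic neurons (edgeR, adjusted p = 5.39e-21).

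Nrxn2 had 199.9, 233 and 269 CPM in glutamatergic and 249, 282 and 326 CPM in GABAergic neurons, ranges that overlap, although GABAergic neurons were higher in 8 of 8 libraries. Its log2 fold change was 0.14 (SE 0.03, edgeR adjusted p = 0.000351). Nlgn3 had 40.8, 43.8 and 50.2 CPM against 47.4, 52.5 and 62.5, a log2 fold change of 0.13 (SE 0.04, edgeR adjusted p = 0.00304). Nlgn2 had 42.5, 49.3 and 53.6 CPM against 49.5, 54.6 and 65.3, and its log2 fold change of 0.06 (SE 0.04) did not pass (edgeR adjusted p = 0.201). In all 4 of 5 genes were called, where 69.4% of the 17162 genes tested were, so the count itself says little about these genes. The fold changes rest on TMM scaling, and without it the median of all genes moved from 0.02 to 0.17 and the share of calls that were higher in GABAergic neurons from 52.4% to 67.3%. Nrxn2 was then at 0.29, Nlgn2 at 0.21, past the threshold, and Nlgn3 at 0.28, while Nrxn3 (0.89) and Nlgn1 (-1.45) kept their directions. Without PValb interneurons, the GABAergic type with the least Nrxn2, its log2 fold change was 0.34 and that of Nlgn3 was 0.23.

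**Figure D2:**
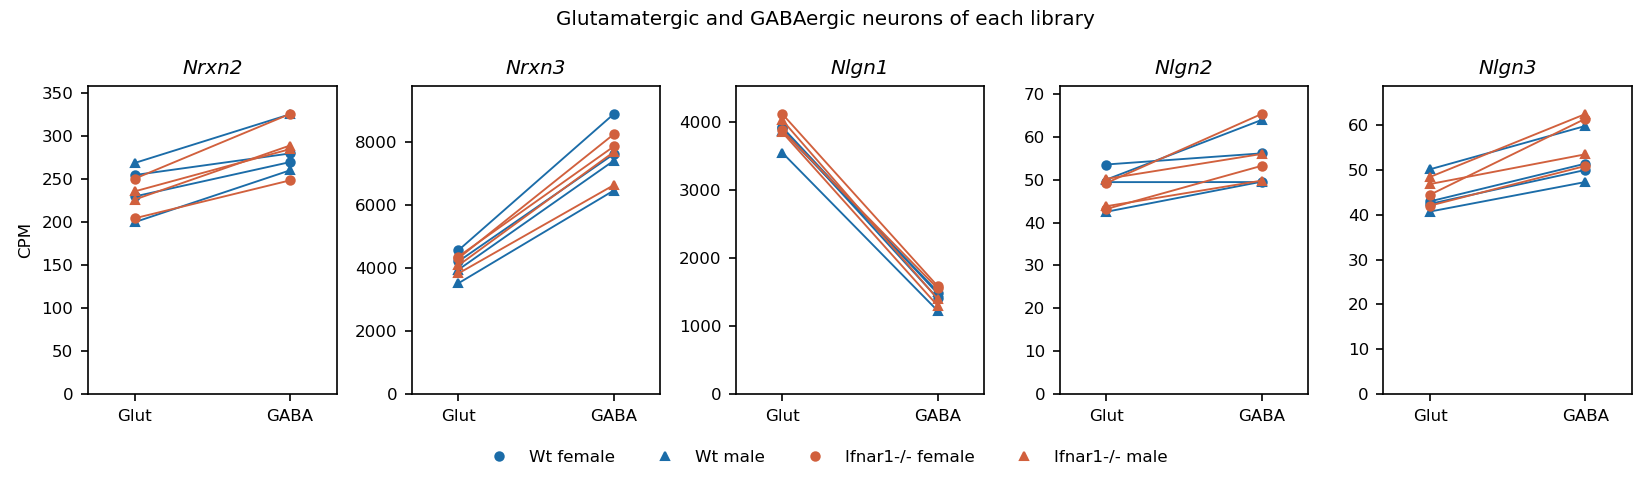
Each panel plots 1 gene, with the CPM of summed UMIs of glutamatergic (Glut) and GABAergic (GABA) neurons joined by a line for each of the 8 libraries. All 8 lines rise for Nrxn3 and fall for Nlgn1, and those of Nlgn2 run close to level in some libraries.

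The known partners of these proteins differed between the classes as well. Of 36 partner genes, listed by role, 34 passed in edgeR's quasi-likelihood test with 11 higher and 23 lower in GABAergic neurons, against the 69.4% called among all genes, and their median log2 fold change was -0.41 where that of all genes was 0.02. Without TMM 31 passed, 12 higher and 19 lower, and 2 changed sign, Mdga2 and Shank1. Among 16 extracellular partners of neurexins 6 were higher and 9 lower. Nxph1 and Nxph2, secreted neurexophilins that bind neurexins, were higher in GABAergic neurons, Nxph1 at 2027 ± 232 against 37.9 ± 8.79 CPM (log2 fold change 5.61) and Nxph2 at 34.3 ± 6.88 against 2.35 ± 0.368 CPM (3.71). Nxph3 was lower (-1.98), as was C1ql3, a secreted protein that binds certain neurexin splice forms, at 14.9 ± 5.19 against 201 ± 55.5 CPM (-3.90). The neurexophilins thus went to opposite classes.

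All 3 membrane proteins that bind neuroligins passed, with Mdga1 lower in GABAergic neurons (log2 fold change -1.49) and Lhfpl4, which links Nlgn2 to GABA-A receptors, higher (0.23). No direction is given for Mdga2, which was at -0.09 with TMM and at 0.06 without it, where its CPM was 1715 ± 148 in GABAergic and 1648 ± 97.2 in glutamatergic neurons. Of 6 proteins at the intracellular tail of neurexins 5 passed, the adaptors Apba2 (-1.21), Lin7b (-1.06) and Lin7a (-0.95) lower and Apba1 (0.49) higher. Of 8 scaffolds at the tail of neuroligins 3 were higher and 5 lower, Shank2 (-1.35), Dlg4, which encodes PSD-95 (-0.88), and Shank3 (-0.51) among them. All 3 regulators of neurexin splicing were lower in GABAergic neurons, Khdrbs2 at 117 ± 24.9 against 501 ± 14.7 CPM (-2.27), Khdrbs3 at 210.1 ± 17.1 against 643 ± 31.7 CPM (-1.76) and Khdrbs1 by less (-0.22).

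**Figure D3:**
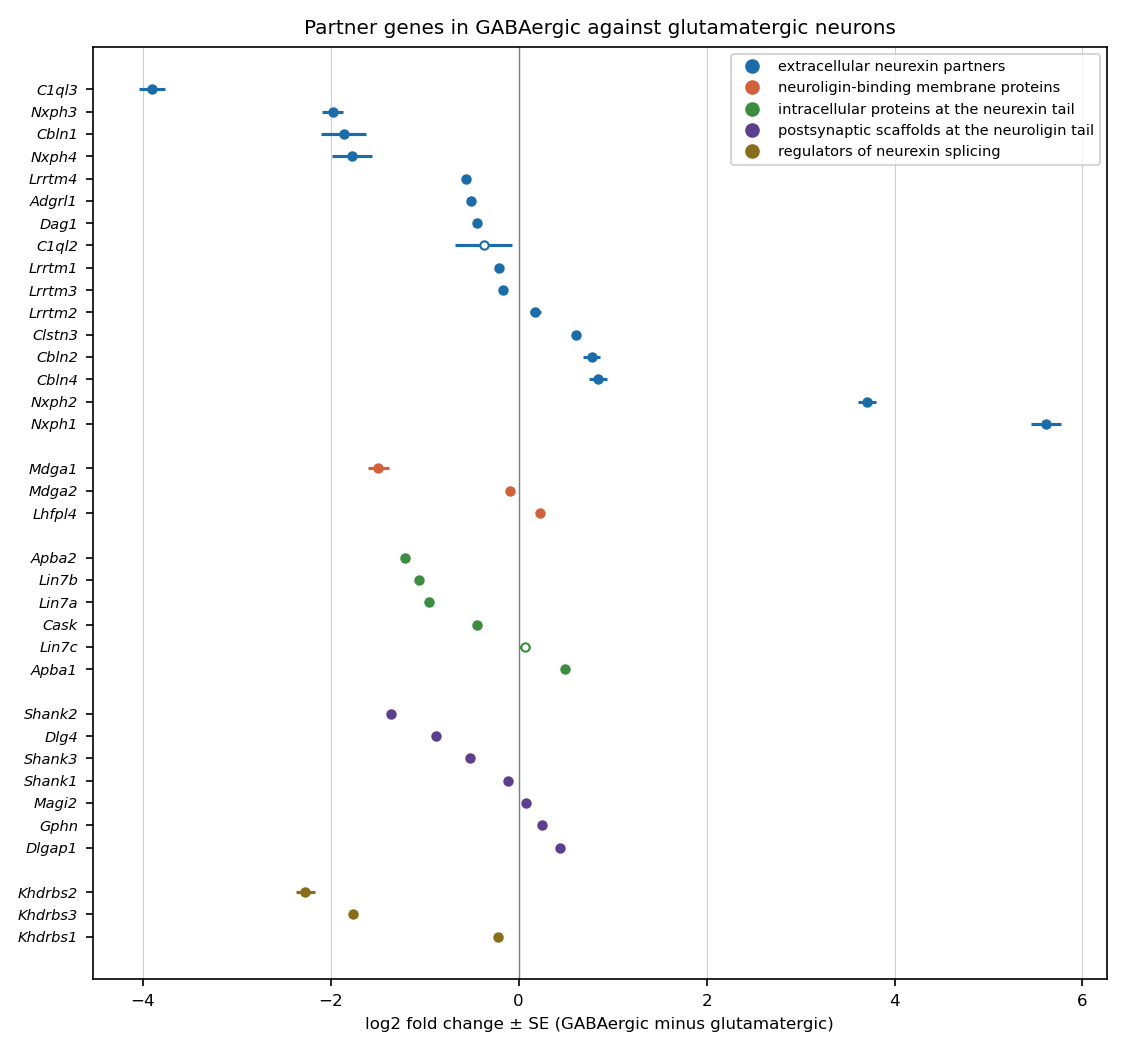
Points give the log2 fold change of the partner genes reported here, GABAergic minus glutamatergic, and lines ± 1 SE from edgeR, grouped and coloured by role, with filled points past an adjusted p of 0.05. Nxph1 (5.61) and C1ql3 (-3.90) mark the ends, and C1ql2 and Lin7c are the 2 open points.

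Loss of Ifnar1 was compared with Wt in each cell type, the question of the study. None of the 5 genes differed between genotypes in any type by the test used. Of 95 pairs of gene and type 93 could be tested, as Nlgn2 and Nlgn3 fell below the filter on low counts in astrocytes, and edgeR's quasi-likelihood test called 0 of 93 at an adjusted p of 0.05, while 0.0489% of all genes and types were called. At an unadjusted p under 0.05 the count was 0 as well, against 2.19% of all genes and types, and DESeq2 called 0 of 95, against 0.0432%. The edgeR fit had no term for sex, so spread between the sexes stayed in its error, and its smallest adjusted p was 0.833. Over all alternative fits in edgeR and DESeq2, sex as a covariate among them, the smallest adjusted p was 0.362. None of these fits called any of the 5 genes in any of the 19 types.

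In glutamatergic neurons Nrxn2 stood at 255, 229.8, 199.9 and 269 CPM in Wt and at 204, 250.5, 226 and 236 CPM in Ifnar1-/-, so the groups overlapped (log2 fold change -0.04, SE 0.10). Nrxn3 stood at 4215, 4568, 3951 and 3520 CPM in Wt and 4368, 4313, 3832 and 4087 CPM in Ifnar1-/- (0.04, SE 0.10). Nlgn1 stood at 3909.9, 3922, 3874 and 3548 CPM in Wt and 3876, 4117, 3848 and 4028 CPM in Ifnar1-/- (0.07, SE 0.06). The lowest of these Nlgn1 values was the library Wt M2, and all other libraries lay close together. Nlgn2 stood at 53.6, 49.4, 42.5 and 50.0 CPM against 43.2, 49.2, 43.8 and 50.2 (-0.06, SE 0.10). Nlgn3 stood at 43.0, 42.5, 40.8 and 50.2 CPM against 42.1, 44.5, 48.5 and 46.9 (0.06, SE 0.08). Of the approximate 95% intervals in this class, the widest reached from -0.16 to 0.24 for Nrxn3 and the narrowest from -0.05 to 0.19 for Nlgn1.

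In GABAergic neurons the log2 fold changes were 0.02 (SE 0.10) for Nrxn2, 0.01 (SE 0.13) for Nrxn3, 0.07 (SE 0.11) for Nlgn1, 0.04 (SE 0.13) for Nlgn2 and 0.14 (SE 0.11) for Nlgn3, and the groups overlapped for each gene. Over all types tested the values ran from -0.20 to 0.88 for Nrxn2, -0.85 to 0.21 for Nrxn3, -0.20 to 0.50 for Nlgn1, -0.49 to 0.34 for Nlgn2 and -0.19 to 0.43 for Nlgn3. In newly formed oligodendrocytes Nrxn2 was 108, 113 and 100.1 CPM in 3 Wt libraries and 100.5, 422, 121 and 191 CPM in 4 Ifnar1-/- libraries, and its value of 0.88 (SE 0.44) rested on few nuclei, 12 of them in the highest library. Nlgn1 was higher in Ifnar1-/- by value in 15 of 19 types, none of which passed. These types come from the same mice, and the share of all genes with such a count was not taken. Wt M2 was the lowest Wt library for Nlgn1 in glutamatergic (3548 CPM), GABAergic (1224 CPM) and striatal projection neurons (2796 CPM). The part of this library in the count was not tested. Among the types tested for Nlgn1, its groups did not overlap in astrocytes alone, at 2059 to 2333 CPM in Wt and 2608 to 2690.0 CPM in Ifnar1-/- (n = 3 each, adjusted p = 0.996 in edgeR). With so few libraries this carries little weight, and the share of all genes whose groups did not overlap was not counted.

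**Figure D4:**
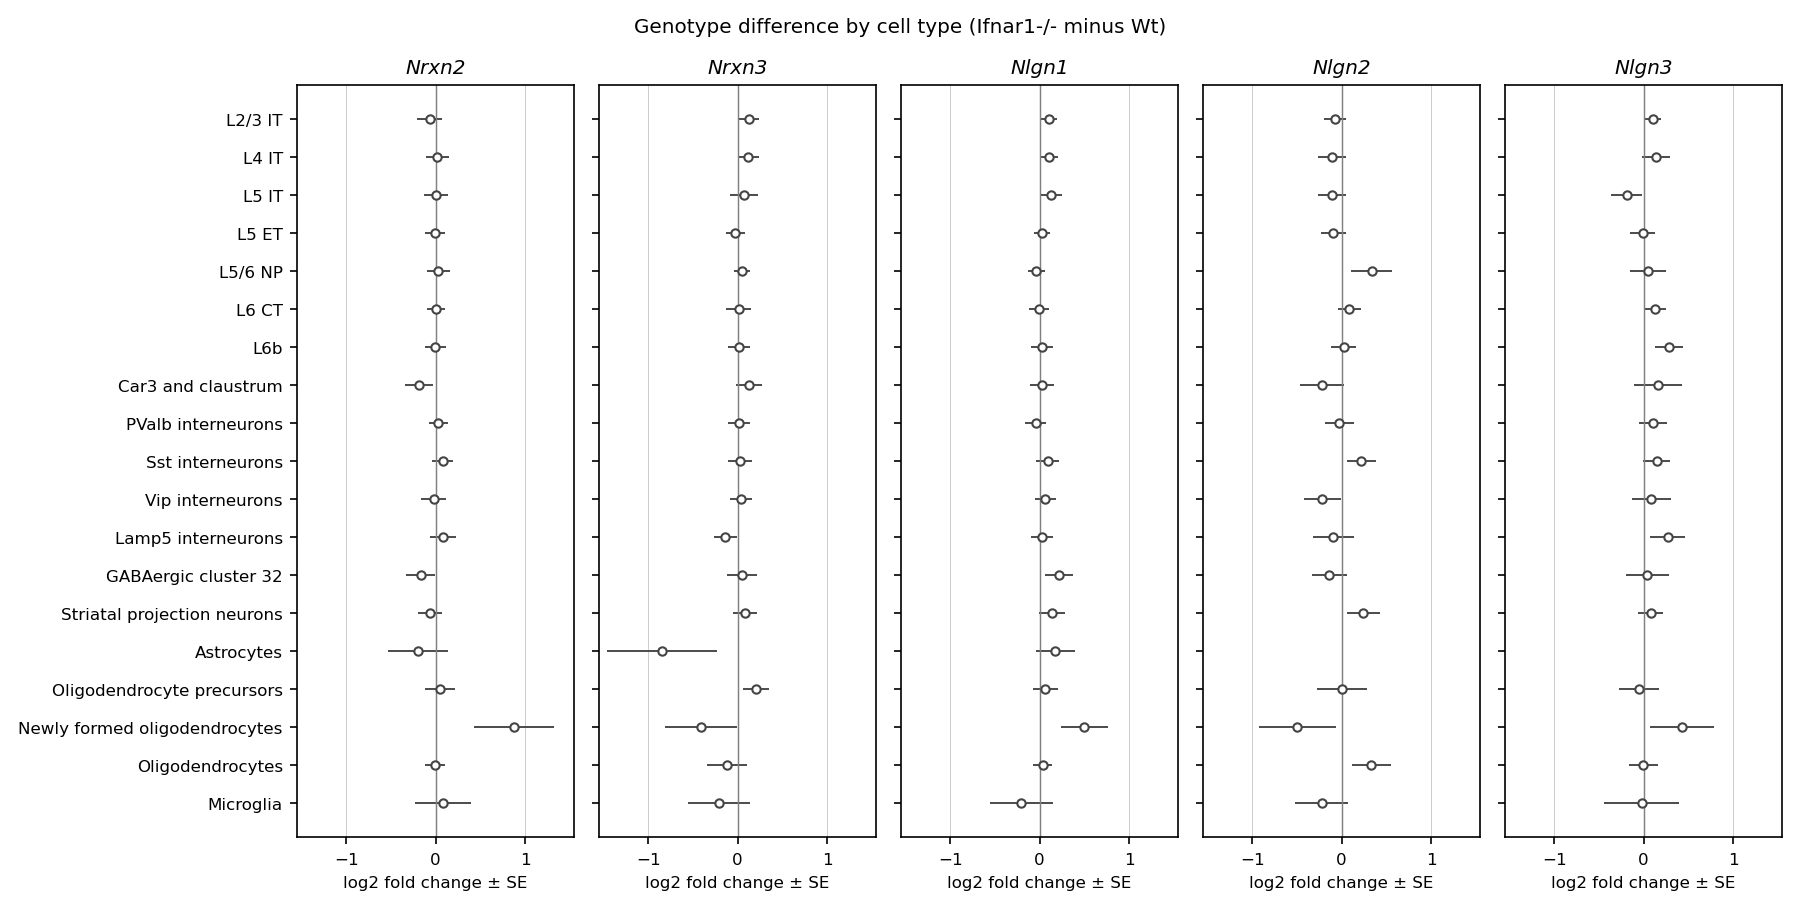
Each panel plots 1 gene, with cell types as rows and the log2 fold change (Ifnar1-/- minus Wt) as points with lines of ± 1 SE from edgeR. All points are open, since none of the 93 passed an adjusted p of 0.05, and the widest lines belong to astrocytes, newly formed oligodendrocytes and microglia.

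The genotype effect did not differ detectably between the neuron classes either. The log2 ratio of GABAergic to glutamatergic CPM was 0.26 ± 0.10 in Wt and 0.32 ± 0.05 in Ifnar1-/- for Nrxn2, 0.90 ± 0.05 and 0.87 ± 0.06 for Nrxn3, and -1.45 ± 0.07 and -1.45 ± 0.12 for Nlgn1 (SD, n = 4). For Nlgn2 it was 0.16 ± 0.16 and 0.26 ± 0.12, and for Nlgn3 0.24 ± 0.02 and 0.32 ± 0.12. Exact two-sided permutation tests over the 8 libraries gave p from 0.286 to 0.943, with 0.571 the smallest after adjustment over the 5 genes, where 4 against 4 libraries can reach 0.0286. Of the partner genes 0 of 36 passed for genotype in glutamatergic and 0 of 33 in GABAergic neurons (edgeR adjusted p), where 0.0594% and 0.0266% of all genes were called. At an unadjusted p under 0.05 the counts were 0 and 1, against 1.71% and 1.63% of all genes. The values with the smallest p were Mdga1 (-0.18), Cbln2 (0.28) and Apba2 (-0.10) in glutamatergic neurons, and Dlgap1 (-0.22), C1ql3 (0.49) and Nxph2 (0.32) in GABAergic neurons.

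Sex, with genotype in the model, was the factor along which Nrxn3 and Nlgn1 differed. Nrxn3 was lower in males than in females in 11 of 14 neuron types by edgeR's quasi-likelihood test, and Nlgn1 in 6 of 14, where 7.08% of all genes and neuron types were called lower in males and 16.4% in either direction. The median log2 fold change over neuron types, male minus female, was -0.28 for Nrxn3 and -0.20 for Nlgn1. Nrxn2, Nlgn2 and the X-linked Nlgn3 were called in 0 of 14 neuron types, with values between -0.26 and 0.10, -0.25 and 0.11, and -0.29 and 0.15. These types come from the same 8 mice, so their calls are not independent of each other.

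In glutamatergic neurons Nrxn3 was 4215, 4568, 4368 and 4313 CPM in the 4 females and 3951, 3520, 3832 and 4087 CPM in the 4 males, without overlap. Its log2 fold change was -0.24 (SE 0.06, edgeR adjusted p = 0.0163), where 29.9% of all genes were called for sex in this class. In GABAergic neurons it was 7623, 8896, 7865 and 8253 CPM in females and 7414, 6466, 6637 and 7690 CPM in males, which overlap narrowly (-0.28, SE 0.08, edgeR adjusted p = 0.0272, with 23.9% of genes called). Striatal projection neurons had 6997, 7002, 6821 and 7430.3 CPM in females and 6348, 5623, 6144 and 6773 CPM in males (-0.29, SE 0.08, edgeR adjusted p = 0.0171, with 15.7% called). The value was furthest from 0 in L5 IT neurons (-0.40, SE 0.09). The 3 neuron types without a call were GABAergic cluster 32 (-0.28), Car3 and claustrum (-0.04) and L5/6 NP neurons, where males were higher by value (0.06).

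For Nlgn1 the neuron types called were striatal projection neurons (-0.31), L6b (-0.30), PValb interneurons (-0.25), L5 IT (-0.25), L6 CT (-0.24) and L4 IT (-0.23). In L6 CT neurons females had 2540.3, 2747, 2585 and 2526 CPM and males 2425, 2243, 2357 and 2361 CPM, without overlap. Over the whole classes Nlgn1 was not called, at -0.11 in glutamatergic (SE 0.05, edgeR adjusted p = 0.139) and -0.22 in GABAergic neurons (SE 0.08, edgeR adjusted p = 0.0522). Oligodendrocyte precursors were the glial type with a call, with 5537, 4935, 5067 and 5594 CPM in females and 4273, 4005, 4434 and 4362 CPM in males (-0.33, SE 0.09, edgeR adjusted p = 0.0367, with 4.6% of genes called), a call that DESeq2 did not give (adjusted p = 0.0814). The summed CPM of the 8 neuron-wide genes in these precursors was 6144 by mean in females and 6326 in males, and its part in the result was not tested.

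These sex calls rested on single libraries to a degree. Over the 8 classes 5 pairs of gene and class were called, Nrxn3 in 3 neuron classes and Nlgn1 in striatal projection neurons and oligodendrocyte precursors, of 38 tested, while 21.7% of all genes and classes were called. The count was 1 without library Wt F2 or Ifnar1-/- M1, 2 without Wt M2 or Ifnar1-/- F1 and 3 without Ifnar1-/- F2, though the sign was negative for all 5 pairs in all 8 of these fits. Of the partner genes 9 of 36 were called for sex in glutamatergic neurons (4 higher and 5 lower in males) and 9 of 33 in GABAergic neurons (3 higher, 6 lower), near the shares of all genes. The labels do not say whether the sexes were processed apart, so sex and any such batch cannot be told apart here.

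**Figure D5:**
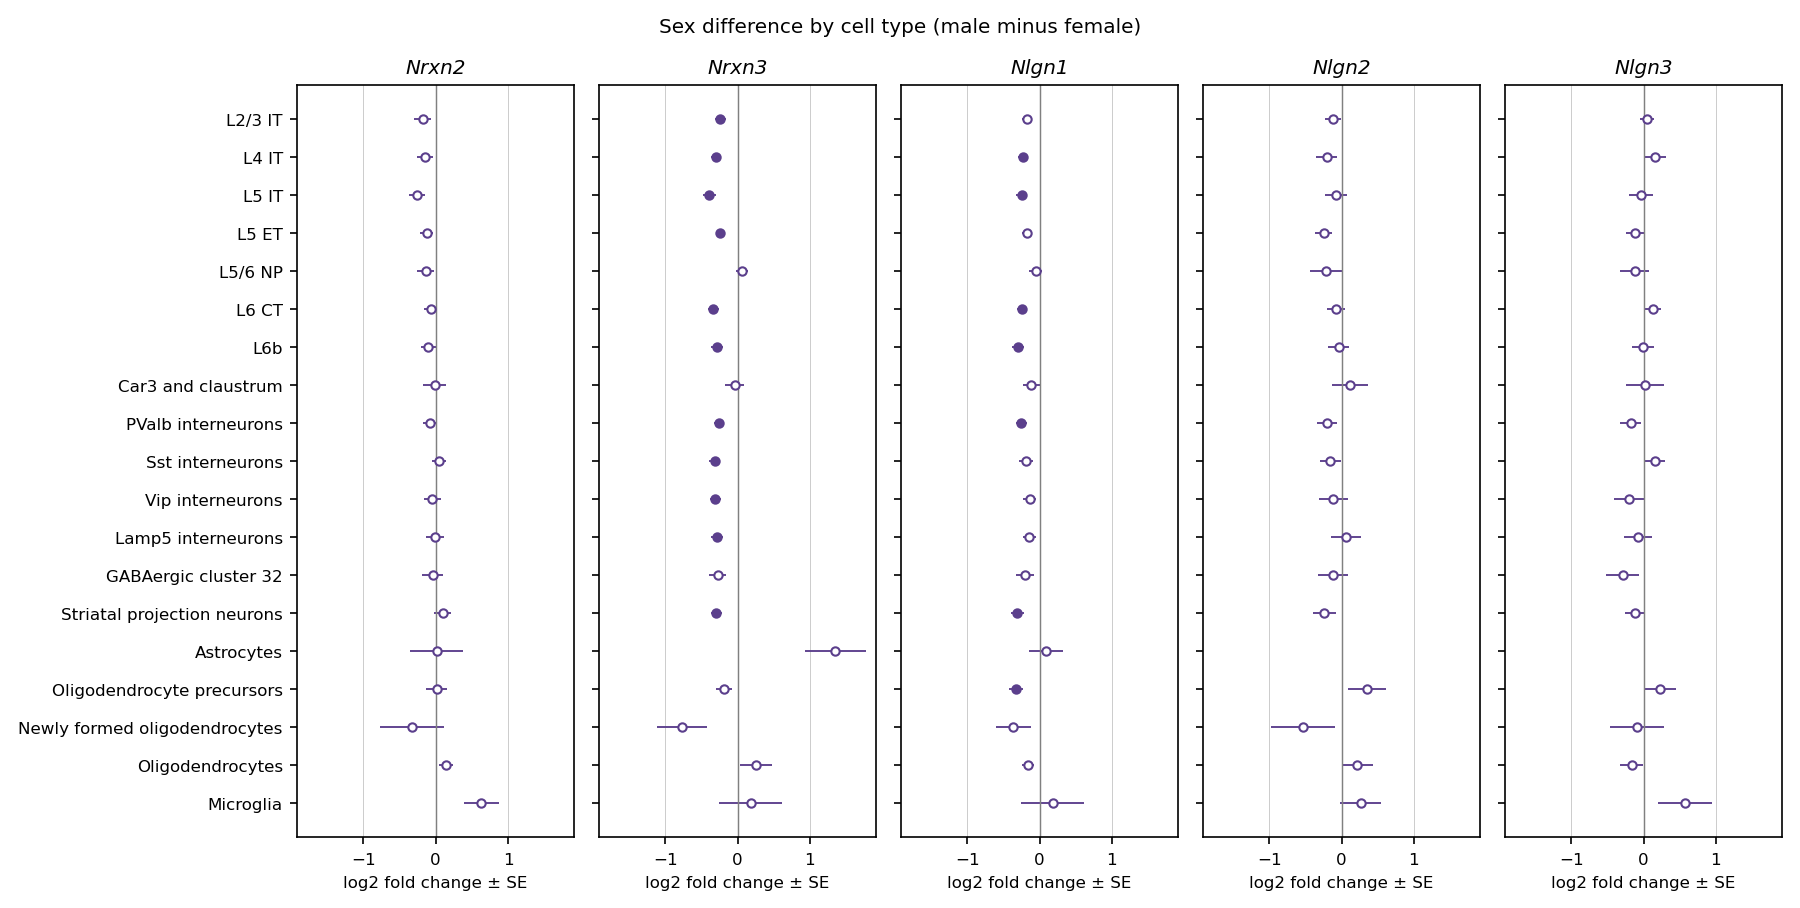
Each panel plots 1 gene, with cell types as rows and the log2 fold change (male minus female) as points with lines of ± 1 SE from edgeR, filled where the adjusted p was under 0.05. Filled points sit left of 0 for Nrxn3 in 11 neuron types and for Nlgn1 in 6 neuron types and oligodendrocyte precursors, and the other 3 panels hold open points only.

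Whether the effect of Ifnar1 loss differed between the sexes was tested in the 8 classes and in all nuclei together, with 2 mice of each sex and genotype. Of 43 pairs of gene and set 0 passed in edgeR's quasi-likelihood test, where 0.00302% of all genes and sets did, and 1 had an unadjusted p under 0.05, against 2.52%. That was Nrxn3 in microglia, with a genotype log2 difference of 0.55 in females and -0.85 in males and an interaction of -1.47 (SE 0.55, edgeR adjusted p = 1.00). Relative to all nuclei its level there was by mean below that of all 8 neuron-wide genes, and the summed CPM of those 8 genes in microglia was 2381 by mean in females and 3301 in males, whose part in this value was not tested.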

How the data were processed

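Nuclei from the cortex of 8 mice, 1 library each, were profiled by droplet-based snRNA-seq. The authors deposited raw UMI counts per gene and barcode for each library, made with Cell Ranger on the mm10 reference with transcripts relabelled as exons, so that intronic UMIs are counted. The submitters' processing notes also name Seurat 3.1.5. Library totals and depths per nucleus limit the precision of the low genes Nlgn2 and Nlgn3 most.

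Nuclei with 200 to 6000 genes, more than 1000 UMIs and less than 10% mitochondrial UMIs were kept, and Scrublet doublets (2262, 4.16%) were removed. Clusters (scanpy 1.11.5, 3000 variable genes, 40 components, 20 neighbours, Leiden resolution 2) were named from marker lists, without the 5 genes and their partners, and a neuron type whose clusters all held, among their 10 leading genes, more markers of another type than of its own is called by its cluster number. UMIs were summed per library and type where a library held at least 10 nuclei of it. Genotype was tested without a term for sex, and sex with genotype in the model, with edgeR 4.0.16 (quasi-likelihood, TMM, filterByExpr), and GABAergic against glutamatergic sums with the library as a term, with Benjamini-Hochberg adjustment over all genes tested in a fit. DESeq2 1.42.0, sex as a covariate, other scalings, no filter, doublets kept, a replicate block and leaving out each library were alternatives. For thinning, the exact probability that 1000 UMIs drawn from a nucleus hold at least 1 UMI of a gene was computed. It was averaged over nuclei, so thinned shares are expected shares and no draw was made. The scripts were tested on simulated data.

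The members and lists were chosen with earlier results of these data known. Named partners are the 4 per role with the largest absolute log2 fold change past the threshold between neuron classes, or the 3 per class with the smallest p for genotype, and 1 gene that the rule names is not reported here. The genes named for likeness are the 3 with the highest Pearson r for each member, among genes with at least 20 CPM in 1 type. Mice of the 2 genotypes share the labels F1, F2, M1 and M2. The deviations of same-labelled libraries correlated in every pair (r from 0.37 to 0.64 over all nuclei, glutamatergic and GABAergic neurons), but most libraries correlated best with another of their sex, and no source says that a label marks a shared litter or day. Promoter sequences were not used here, since the measurements are counts per gene.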

Additional observations from a re-analysis of the deposited data

Results flagged for a closer look

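In 9 of 205 groups of 4 libraries (4.39%), 1 library stood far from the other 3, where chance gives about 1 in 20 independent groups. These groups share mice, and classes contain their types, so the share cannot show whether the flagged groups arose by chance. For Nrxn2 it was the L5 IT neurons of Wt M1, at 206 CPM against 268 to 272 in the other Wt libraries. For Nrxn3 it was the oligodendrocytes of Wt M1, at 271 CPM against 150.2 to 161. For Nlgn1 it was the glutamatergic neurons of Wt M2, at 3548 CPM against 3874 to 3922, and the L4 IT neurons of Ifnar1-/- F2, at 3975 CPM against 3647 to 3665. For Nlgn2 it was the striatal projection neurons of Ifnar1-/- M1, at 42.6 CPM against 56.8 to 58.8, the oligodendrocytes of Ifnar1-/- M2, at 26.3 CPM against 15.5 to 16.7, and the PValb interneurons of Ifnar1-/- F2, at 62.1 CPM against 44.9 to 45.5. For Nlgn3 it was the Sst interneurons of Wt M2, at 70.4 CPM against 47.4 to 50.7, and those of Ifnar1-/- M1, at 69.4 CPM against 54.3 to 56.7. The causes were not tested.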

How the results depend on the processing

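The replicate block, which pairs mice by label, was fitted for genotype only. It called 0 of the 5 genes in any type and 0 partners, with Nrxn2 in glutamatergic neurons at -0.04 and Nlgn3 in GABAergic neurons at 0.14. Genotype values that passed no test changed sign when 1 library was left out, over -0.13 to 0.0041 for Nrxn2 and -0.033 to 0.12 for Nrxn3 in glutamatergic neurons, and over -0.045 to 0.085 for Nrxn2, -0.070 to 0.12 for Nrxn3, -0.0013 to 0.13 for Nlgn1 and -0.039 to 0.12 for Nlgn2 in GABAergic neurons. Nrxn3 in GABAergic neurons was at -0.0057 with no filter on low counts. Between the neuron classes, Nlgn2 passed without TMM (0.21) and without PValb interneurons (0.13), was at -9.73e-05 with no filter, and ranged from 0.023 to 0.10 with 1 library left out, passing without Wt F2 only. Nlgn3 no longer passed with no filter (0.074). These causes were not tested. Neighbouring types past the threshold fell from 17 to 0 pairs after thinning and to 0 without any 1 library, since 7 libraries would need 29 pairs at the smallest p and 17 to 20 reached it. The sex count of 5 pairs over the classes ranged from 1 to 5 with 1 library left out. The genotype-by-sex fit without single libraries and alternatives to the class-by-genotype test were not run. Depth limits Nlgn2 and Nlgn3 in astrocytes most, at 19 and 33 UMIs in all.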

Other observations

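In astrocytes Nrxn3 was 418 to 719 CPM in 3 females and 933 to 2081 CPM in 3 males, without overlap, with a log2 fold change (male minus female) of 1.35 (SE 0.42) that did not pass (edgeR adjusted p = 0.179). The summed CPM of the 8 neuron-wide genes in these astrocytes was 2531 by mean in females and 6318 in males, and its part in the difference was not tested. In L5/6 NP neurons, the neuron type with the lowest Nrxn3, females had 1374 to 1529 CPM and males 1595 to 1625 CPM, also without overlap, although the log2 fold change of 0.06 did not pass (edgeR adjusted p = 0.722).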
